A study of Mus musculus with 12 samples.

Results

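The proteins encoded by 10 mouse genes pass signals from Toll-like receptors, interleukin-1 receptors and related innate sensors to the kinases that activate NF-kB. They are the adaptor genes Myd88, Ticam1 and Ticam2, the interleukin-1 receptor-associated kinase genes Irak1, Irak2, Irak3 and Irak4, the ubiquitin ligase gene Traf6, and the genes Tifa and Ripk2. They were taken by symbol from a deposited table of read counts with 12483 genes, and all 10 of the 10 symbols were found there. All 10 also passed the filter on low counts, which left 12231 genes tested. The group was proposed with results of these data in view, so the levels, fold changes and calls below describe the genes and are not independent support for any difference.

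The libraries came from RAW 264.7 cells, a mouse macrophage-like cell line. CRISPR constructs aimed at both sides of an element named NRE1, an abbreviation the labels leave unexpanded, were introduced into the cells, and lines were grown from single cells. The labels name 3 wild-type clones (WT 1, 2 and 3) and 3 NRE1-deleted clones (KO 1A, 1B and 2). Each clone gave 1 library after 6 h in medium alone and 1 after 6 h with lipopolysaccharide (LPS, 10 ng/mL) and interferon-gamma (IFN-gamma, 50 ng/mL), so each of the 4 groups held 3 libraries. Both genotypes were cloned cell lines from 1 parental line, and the labels describe the same construct treatment for every library. They do not say how KO 1A and KO 1B are related.

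Binding of LPS to TLR4 recruits MyD88, which assembles IRAK4, IRAK1 and IRAK2 into a complex called the myddosome. IRAK-M, the product of Irak3, is known as a brake on that complex. TRIF (Ticam1), bridged to TLR4 by TRAM (Ticam2), carries the branch that leads to type I interferon. The IRAKs hand the signal to TRAF6, a ligase that builds ubiquitin chains used to activate the TAK1 and IKK kinases. TIFA joins TRAF6 downstream of the bacterial sugar sensor ALPK1, and RIPK2 is the kinase that serves the peptidoglycan sensors NOD1 and NOD2.

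Total counts ran from 10624591 to 14388590 per library. All 9 macrophage markers examined had rows. Their summed level was 9089 to 20456 counts scaled to library size (CPM) in WT medium and 7737 to 15779 in WT LPS/IFN-gamma libraries. In KO libraries it was 5087 to 15643 CPM in medium and 4938 to 9703 CPM under LPS/IFN-gamma. Of these markers Lyz2 had the highest mean in medium, 10038 CPM in WT and 4818 CPM in KO clones. Mrc1 averaged 0.254 and 0.0548 CPM there. The table used here lists no row for any of the B-cell, T or NK-cell, fibroblast and epithelial markers examined. Of 4 dendritic-cell markers 3 had rows, at a summed 1.47 to 16.3 CPM in WT medium, 10.2 to 25.6 in WT LPS/IFN-gamma, 2.46 to 3.69 in KO medium and 7.40 to 8.67 in KO LPS/IFN-gamma libraries. Single neutrophil and mast-cell markers, S100a8 and Kit, reached at most 2.43 and 2.98 CPM. Of the macrophage markers, Itgam was lower in KO clones in medium (log2 difference -1.75 ± 0.26) and Mrc1 under LPS/IFN-gamma (-3.01 ± 0.52), and both calls were lost with KO 1A and 1B summed (adjusted p = 0.118 and 0.113, edgeR). The part of these markers in the results was not tested, and in bulk RNA fewer cells of a kind and less RNA per cell cannot be told apart. The inducible nitric oxide synthase gene Nos2 stood at 0.311 to 0.626 CPM in WT and 0.329 to 0.541 CPM in KO medium libraries, against 451 to 1121 and 803 to 1234 CPM under LPS/IFN-gamma. The element NRE1 has no row of its own, so the deletion could not be checked in these counts. The genotypes also differed in the Y-linked gene Ddx3y, at 135 to 148 CPM in WT and 1.08 to 2.80 CPM in KO medium libraries, and its part in the values below was not tested. The pair KO 1A and KO 1B showed the smallest spread of any pair, with an SD of the log2 difference over genes of 0.23 in medium and 0.25 under LPS/IFN-gamma, against 0.39 to 0.45 for the other KO pairs and 0.54 to 0.73 for WT pairs.

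On stimulation 8 of the 10 genes changed in WT clones, 6 higher and 2 lower, where 47.4% of all genes tested were called (23.8% higher and 23.6% lower). In KO clones 7 changed, 5 higher and 2 lower, where 54.3% of all genes were called (26.7% higher and 27.6% lower). The threshold for a call was an adjusted p of 0.05 (Benjamini-Hochberg, all genes tested) in edgeR's quasi-likelihood test. The median log2 fold change over the 10 genes was 1.27 in WT and 0.92 in KO clones, beside -0.01 over all genes in both. The genes moved in both directions: Myd88, Ticam1, Irak2, Traf6 and Ripk2 rose in both genotypes, Irak1 and Irak4 fell in both, and Tifa was called higher in WT clones and not called in KO clones. Ticam2 and Irak3 were called in neither. The libraries of the 2 conditions did not overlap for 7 of the 10 genes in WT and 8 in KO clones, beside 50.5% and 70% of all genes.

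**Figure D1:**
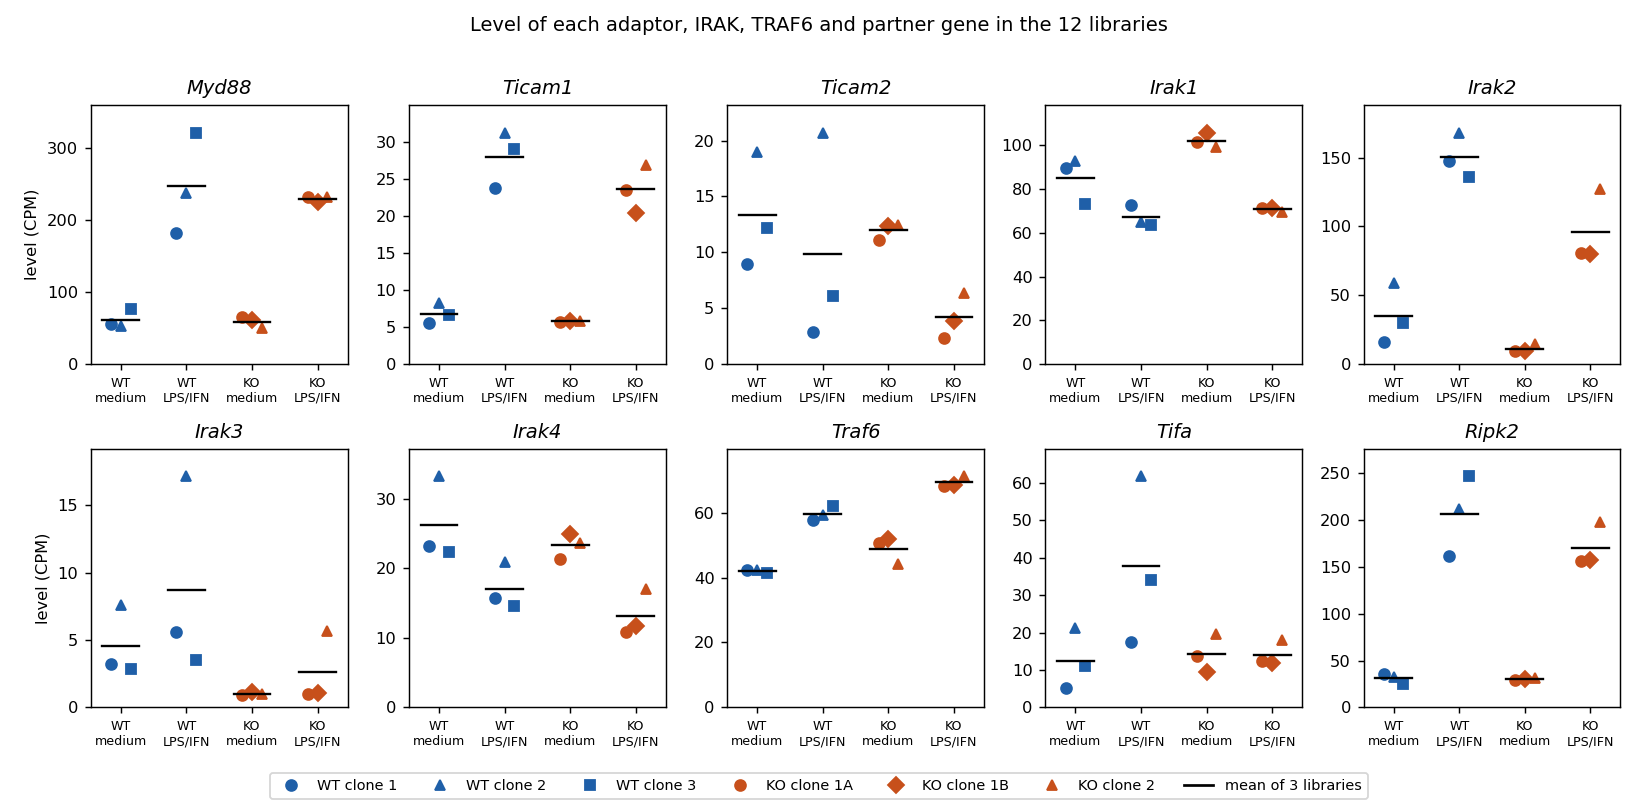
Level of each gene (CPM, linear axes from 0) in the 12 libraries, by group; symbols mark the clone and bars the mean of 3 libraries. Myd88, Ticam1, Irak2 and Ripk2 step up on stimulation in both genotypes, whereas the 3 KO values of Tifa under LPS/IFN-gamma (11.8 to 17.9 CPM) lie within its KO medium range of 9.47 to 19.6 CPM.

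The adaptor gene Myd88 encodes the adaptor used by nearly all Toll-like receptors and by the interleukin-1 receptor. It lies on chromosome 9 at 119335934 to 119341411, minus strand (GRCm38, GENCODE M21), and 11.3% of its exon bases overlap exons of Acaa1a on the opposite strand. In medium it stood at 54.9, 53.1 and 77.1 CPM in WT clones 1, 2 and 3 and at 65.0, 61.6 and 50.5 CPM in KO clones 1A, 1B and 2. Under LPS/IFN-gamma it stood at 183, 237 and 321 CPM in the WT clones and at 232, 225 and 232 CPM in the KO clones. Every stimulated library was above every medium library, and the 2 genotypes overlapped in both conditions. The log2 fold change was 2.00 ± 0.21 (SE) in WT and 1.96 ± 0.21 in KO clones, about 4.0-fold and 3.9-fold.

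RefSeq promoter windows run from 250 bases before to 50 after a transcription start (GRCm38.p6). Of these, 11 windows from 8 of the 10 genes were used, and none of Ticam2 or Ripk2. Both strands were searched for the NF-kB consensus, the core of the interferon-stimulated response element (ISRE) and the AP-1 element. Only 2 matches to these motifs were found in these windows, an ISRE core in Myd88 and an NF-kB site in Tifa; among all 32851 windows, 3.4% held the ISRE core, 4.5% the NF-kB consensus and 7.8% the AP-1 element. These letters are a description of the windows and show no binding. The Myd88 stretch is given because it holds the ISRE core found among the 8 genes (positions -40 to -31, counted from the start base as +1). It is chr9:119340042-119340268, minus strand, from -250 to -24, intronic to a longer Myd88 transcript and to transcripts of Acaa1a and Slc22a14, written 5′ to 3′ with the match in capitals.
Myd88: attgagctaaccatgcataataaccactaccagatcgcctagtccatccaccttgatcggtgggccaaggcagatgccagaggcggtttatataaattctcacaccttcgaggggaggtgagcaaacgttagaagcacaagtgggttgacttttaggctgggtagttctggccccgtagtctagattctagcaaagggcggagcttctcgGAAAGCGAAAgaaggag

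Ticam1 encodes TRIF, the adaptor of TLR3 and of the interferon branch of TLR4 (chromosome 17, 56269319 to 56276786, minus strand). Its medium levels were 5.58, 8.22 and 6.59 CPM in the WT clones and 5.70, 5.81 and 5.84 CPM in the KO clones. Its stimulated levels were 23.8, 31.2 and 29.1 CPM in the WT clones and 23.5, 20.4 and 26.9 CPM in the KO clones. The conditions did not overlap in either genotype, and the genotypes overlapped in both conditions. The fitted rise was 2.04 ± 0.17 in WT and 2.03 ± 0.18 in KO clones on the log2 scale. Per clone it was 1.73 to 2.11 over all 6 clones.

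Ticam2 encodes TRAM, which links TRIF to TLR4 (chromosome 18, 46557291 to 46574533, minus strand). Its counts are uncertain, since 14.5% of its exon bases overlap exons of Tmed7 on the same strand. It stood at 8.91, 19.0 and 12.2 CPM in WT medium and at 2.83, 20.7 and 6.08 CPM in WT LPS/IFN-gamma libraries. In the KO clones it stood at 11.1, 12.4 and 12.4 CPM in medium and at 2.35, 3.81 and 6.35 CPM under LPS/IFN-gamma. Levels were lower on stimulation in 5 of 6 clones, and WT clone 2 was the exception with a per-clone log2 response of 0.12. The fitted response was -0.44 ± 0.60 in WT clones (adjusted p = 0.574, edgeR). Without WT clone 2 it was -1.27 with an adjusted p of 0.04. In KO clones it was -1.52 ± 0.63 with an adjusted p of 0.0616, and with each clone as a block -1.57 ± 0.36 with an adjusted p of 0.00507, which is a call; 66.1% of all genes were called there in that fit. The 2 stimulation-induced adaptors and Ticam2 thus had opposite signs in the KO clones.

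The myddosome kinases went in different directions. Irak4 encodes the kinase that binds MyD88 first (chromosome 15, 94543643 to 94581815, plus strand), and 7.9% of its exon bases overlap Twf1 on the opposite strand. It stood at 23.3, 33.2 and 22.3 CPM in WT medium and at 15.7, 20.9 and 14.6 CPM in WT LPS/IFN-gamma libraries. The KO clones had 21.3, 24.9 and 23.7 CPM in medium and 10.8, 11.6 and 17 CPM under LPS/IFN-gamma. All 6 clones were lower on stimulation. The fitted fall was -0.62 ± 0.21 in WT and -0.83 ± 0.22 in KO clones on the log2 scale. Its WT fall missed the threshold when WT 1 was left out (adjusted p = 0.0909), likewise for WT 3 (0.0819), KO 1A (0.0511) or KO 1B (0.0591). Its KO fall missed it when KO 1A (0.054) or KO 1B (0.0841) was left out. Summing KO 1A and 1B as 1 clone also ended both calls, at -0.62 in WT (0.0532) and -0.74 in KO clones (0.0618). These losses were all in edgeR's test with 1 mean per group. With each clone as a block, edgeR called the fall in WT (-0.615 ± 0.131, adjusted p = 0.00276) and KO clones (-0.847 ± 0.136, 0.000433). In that fit 61.2% and 66.1% of all genes were called. The WT fall stayed called there with any 1 clone left out (adjusted p of 0.00158 to 0.0119) or KO 1A and 1B summed (0.00545).

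Irak1 encodes the kinase that IRAK4 phosphorylates (chromosome X, 74013914 to 74023918, minus strand). Its WT levels were 89.8, 93.0 and 73.1 CPM in medium and 72.9, 64.8 and 63.6 CPM under LPS/IFN-gamma. Its KO levels were 102, 106 and 99.1 CPM in medium and 71.4, 71.3 and 69.7 CPM under LPS/IFN-gamma. All 3 KO medium libraries were above all 3 WT medium libraries, by a fitted log2 difference of 0.26 ± 0.10 that was not called. On stimulation it fell by 0.35 ± 0.10 in WT and by 0.53 ± 0.10 in KO clones on the log2 scale. Without WT clone 2 the WT value was -0.28 and no longer called (adjusted p = 0.0955, edgeR with 1 mean per group). With each clone as a block, edgeR without WT clone 2 gave -0.27 with an adjusted p of 0.0339, where 6623 of 12299 genes were called.

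Irak2 encodes a kinase of the complex known for sustaining the response (chromosome 6, 113638467 to 113695026, plus strand). In WT medium libraries it stood at 15.8, 59.0 and 29.6 CPM, a spread of 63.5% of the mean where the median gene had 13.4%. Under LPS/IFN-gamma the WT clones came together at 147, 168 and 136 CPM. The KO clones had 9.22, 9.60 and 14.9 CPM in medium and 80.6, 79.8 and 127 CPM under LPS/IFN-gamma. All KO libraries were below all WT libraries in each condition, and in medium KO clone 2 at 14.9 CPM came close to WT clone 1 at 15.8 CPM. Irak2 rose by 2.11 ± 0.41 in WT and by 3.10 ± 0.43 in KO clones on the log2 scale. Per clone the log2 response was 3.18, 1.50 and 2.18 in the WT and 3.06, 2.99 and 3.05 in the KO clones, so the genotypes overlapped in response.

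Irak3 encodes IRAK-M (chromosome 10, 120141648 to 120202130, minus strand). In the KO clones it had the lowest counts of the 10 genes, with 10 to 17 reads in 5 of the 6 KO libraries. WT clones had 3.19, 7.60 and 2.86 CPM in medium and 5.57, 17.1 and 3.51 CPM under LPS/IFN-gamma. KO clones had 0.900, 1.15 and 0.987 CPM in medium and 1.02, 1.08 and 5.69 CPM under LPS/IFN-gamma. KO clone 2 alone among the KO clones had a stimulated level within the WT range. The log2 response was 0.94 ± 0.71 in WT and 1.34 ± 0.81 in KO clones, neither called. Without KO clone 2 the KO value was 0.03 (adjusted p = 0.979, edgeR).

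Per kilobase of exon, a rough scale on which genes can be set beside each other, the kinases changed order. The length was that of all annotated exons of a gene together. Which transcripts were expressed was not tested, so order between genes depends on the annotation. The ratio of Irak2 to Irak1 was 0.188, 0.679 and 0.433 in WT medium and 2.16, 2.77 and 2.29 in WT LPS/IFN-gamma libraries. In KO clones it was 0.0971, 0.0971 and 0.161 in medium and 1.21, 1.20 and 1.95 under LPS/IFN-gamma. In all 6 clones Irak1 was the higher of the pair in medium and Irak2 under LPS/IFN-gamma, and in each condition the 3 KO ratios lay below the 3 WT ratios. The ratio of Irak2 to Irak4 passed from 0.773, 2.02 and 1.51 to 10.7, 9.15 and 10.6 in WT clones and from 0.493, 0.438 and 0.715 to 8.46, 7.80 and 8.54 in KO clones.

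Traf6 encodes the ubiquitin ligase on which the IRAKs and TIFA converge (chromosome 2, 101678429 to 101701669, plus strand). It was the steadiest of the 10 genes in WT medium, at 42.2, 42.4 and 41.4 CPM. It stood at 57.7, 59.1 and 61.9 CPM in WT LPS/IFN-gamma, 50.8, 51.9 and 44.1 CPM in KO medium and 68.2, 68.4 and 71.1 CPM in KO LPS/IFN-gamma libraries. The KO libraries were above the WT libraries in each condition, by fitted log2 differences of 0.22 ± 0.09 in both, not called. Traf6 rose by 0.50 ± 0.09 in both genotypes on the log2 scale. Scaled by library totals alone, the rises were 0.15 in WT and 0.12 in KO clones and were not called; that scaling moved the median of all genes to -0.37 and -0.39, so relative to the median gene Traf6 stayed higher.

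Ripk2 encodes the NOD1 and NOD2 kinase (chromosome 4, 16122733 to 16163647, minus strand). It stood at 35.6, 32.3 and 25.3 CPM in WT and at 29.5, 30.2 and 31.4 CPM in KO medium libraries. Under LPS/IFN-gamma it reached 161, 212 and 247 CPM in the WT and 156, 158 and 198 CPM in the KO clones. The conditions were far apart in both genotypes and the genotypes overlapped. Its rise of 2.74 ± 0.18 in WT clones was the largest of the 10 genes in that genotype, 6.66-fold. In KO clones it rose by 2.49 ± 0.18 on the log2 scale, 5.62-fold.

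Tifa encodes the TRAF6-binding protein that oligomerises when ALPK1 has sensed bacterial sugar (chromosome 3, 127789805 to 127832164, plus strand). In the WT clones it stood at 5.22, 21.3 and 10.9 CPM in medium and at 17.5, 61.7 and 34.2 CPM under LPS/IFN-gamma. The 2 WT conditions overlapped across clones, because clone 2 in medium was above clone 1 under stimulation. Within each WT clone the level rose about as much, by 1.66, 1.51 and 1.60 on the log2 scale (1.59 ± 0.07, SD, n = 3).

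In the KO clones Tifa stood at 13.9, 9.47 and 19.6 CPM in medium and at 12.5, 11.8 and 17.9 CPM under LPS/IFN-gamma. Their per-clone log2 responses were -0.15, 0.31 and -0.12 (0.01 ± 0.26, SD, n = 3). The 3 WT responses were all above the 3 KO responses, which held for Tifa alone of the 10 genes and for 18% of all genes in either direction. The KO medium levels lay within the WT medium range, and KO clones 1A and 1B under LPS/IFN-gamma were below every stimulated WT clone, whereas KO 2 at 17.9 CPM was just above WT 1 at 17.5 CPM.

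**Figure D2:**
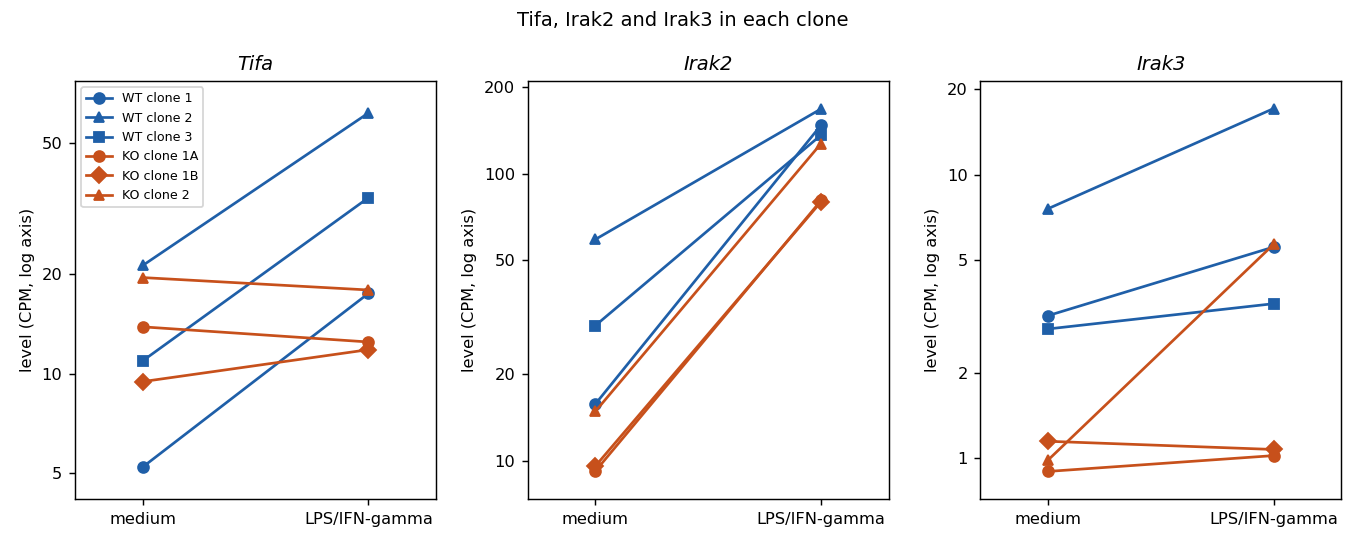
Levels of Tifa, Irak2 and Irak3 (CPM, log axes) with a line per clone from medium to LPS/IFN-gamma. The 3 WT lines of Tifa climb in parallel while the 3 KO lines stay near level, Irak2 climbs in all 6 clones, and Irak3 goes from 0.987 to 5.69 CPM in KO clone 2 and from 0.900 to 1.02 CPM in KO 1A.

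The difference of the Tifa responses was -1.62 ± 0.76 (KO minus WT, log2) with 1 mean per group, which was not called, as no gene was (0% of 12231). With each clone as a block, which compares every clone with itself, it was -1.62 ± 0.18 with an adjusted p of 0.0171 in edgeR's test, where 0.327% of all genes were called. It stayed called when any 1 WT clone was left out (adjusted p of 0.0114 to 0.0248). Over all genes, the fits without WT 1, 2 and 3 called 92, 36 and 198. It was lost when KO 1A was left out (adjusted p = 0.216), when KO 1B was left out (0.0755), when KO 2 was left out (0.0746), and when KO 1A and 1B were summed as 1 clone (-1.65, adjusted p = 0.0947). Over all genes, the fits without KO 1A, 1B and 2 and with 1A and 1B summed called 0, 1, 0 and 0. DESeq2 without a block gave an adjusted p of 0.725 for Tifa. The rise of Tifa in WT clones itself, 1.60 ± 0.54 with an adjusted p of 0.0317, was lost without WT clone 3 (0.113), KO 1A (0.0635) or KO 1B (0.0516), with KO 1A and 1B summed (0.0563), and with scaling by library totals alone (1.24, adjusted p = 0.0624). With clone as a block it was 1.63 ± 0.13 with an adjusted p of 5.97e-06, where 61.2% of all genes were called.

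The promoter window at the second Tifa start is given because it carries the NF-kB match found among the 8 genes. The first stretch is chr3:127790407-127790654, plus strand, from -250 to -3, intronic to longer Tifa transcripts. The second is chr3:127790677-127790706, from +21 to +50 inside an annotated 5′ untranslated exon of a shorter Tifa transcript, with the match at +34 to +43 in capitals. No other motif searched matched in this window, which says only that those letters are absent from it.
Tifa upstream: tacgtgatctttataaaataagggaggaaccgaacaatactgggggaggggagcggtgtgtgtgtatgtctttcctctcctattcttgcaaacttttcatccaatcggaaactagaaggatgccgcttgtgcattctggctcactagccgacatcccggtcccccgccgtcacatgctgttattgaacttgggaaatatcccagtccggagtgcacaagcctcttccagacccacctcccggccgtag
Tifa match: gtcgttgtgatccGGGATTTTCCaattttc

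**Figure D3:**
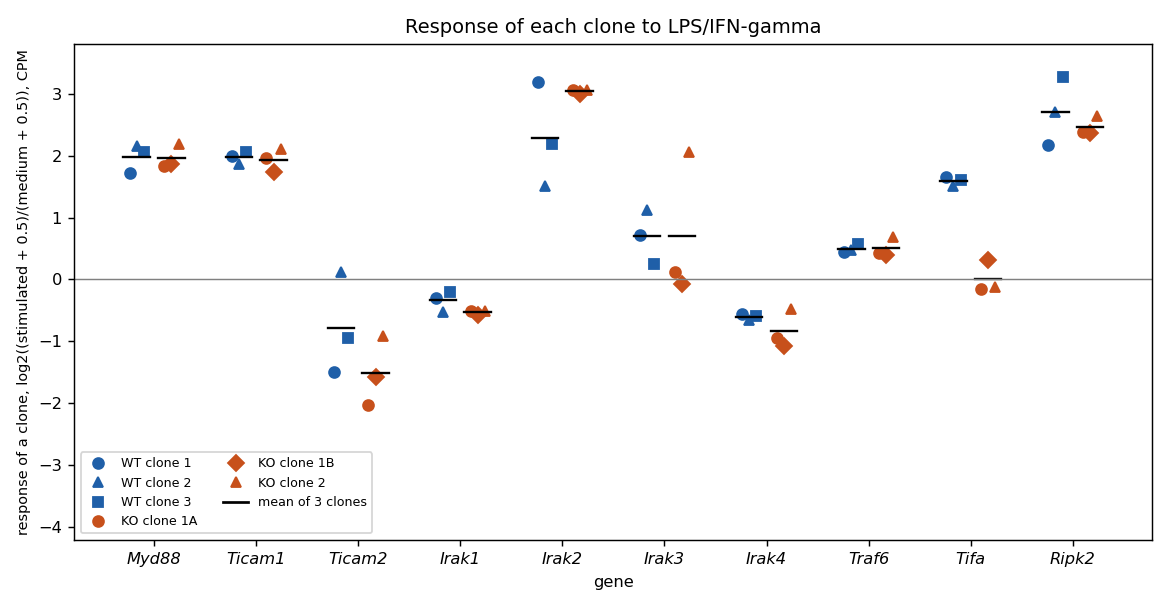
Per-clone log2 response (CPM under LPS/IFN-gamma over CPM in medium, 0.5 added to each) of each gene in the 6 clones, with bars at the mean of 3 clones. Tifa is the gene whose WT responses (1.51 to 1.66) and KO responses (-0.15 to 0.31) do not overlap, as is so for 18% of all genes. Ripk2, Irak2, Ticam1 and Myd88 are above 1 in every clone.

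With 1 mean per group, edgeR called no member between genotypes. In medium 0 of 10 were called by edgeR, where 1.21% of all genes were (0.352% higher and 0.858% lower). Of the 10, 4 had an unadjusted p under 0.05, as did 1720 of 12231 genes. Under LPS/IFN-gamma 0 of 10 were called, where 4.64% of all genes were (1.13% higher and 3.51% lower). There 3 had an unadjusted p under 0.05, as did 2596 of 12231 genes. For the difference of the responses edgeR with 1 mean per group called 0 of 10, where 0% of all genes were called. There 0 of the 10 had an unadjusted p under 0.05, beside 611 of 12231 genes. With clone as a block it called 1, Tifa (adjusted p = 0.0171), where 0.327% of all genes were called. DESeq2 called 1 member in medium, Irak2, where it called 4.96% of all genes. Under LPS/IFN-gamma it called 0 of the 10, where it called 1187 of 12483 genes. For the difference of the responses it called 0, where it called 0.244% of all genes.

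The medium libraries of the genotypes did not overlap for 4 of the 10 genes, Irak1 and Traf6 (higher in KO) and Irak2 and Irak3 (lower in KO), beside 20.9% of all genes. The stimulated libraries did not overlap for 2, Irak2 (lower in KO) and Traf6 (higher in KO), beside 24% of all genes. For Irak2 the fitted log2 difference in medium was -1.63 ± 0.42 with an adjusted p of 0.0971 in edgeR's test. It was 0.00217 in DESeq2's. Without WT clone 1 the edgeR value was -1.98 with an adjusted p of 0.0311, where 159 of 12301 genes were called. Under LPS/IFN-gamma the difference was -0.65 ± 0.39. For Irak3 it was -2.15 ± 0.79 in medium and -1.76 ± 0.75 under LPS/IFN-gamma. For Tifa it was 0.20 ± 0.53 in medium and -1.42 ± 0.54 under LPS/IFN-gamma (adjusted p = 0.165, edgeR). Without WT clone 1 the latter was -1.77 with an adjusted p of 0.0492, where 402 of 12301 genes were called. Without WT clone 2, the highest WT clone for Tifa, the 2 differences were 0.81 and -0.86. WT clone 1 had the lowest WT level of Irak2 in medium (15.8 CPM) and of Tifa under LPS/IFN-gamma (17.5 CPM), so leaving it out widened both gaps.

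The remaining genes had these fitted genotype differences on the log2 scale, none of them called. Under LPS/IFN-gamma Myd88 differed by -0.11 ± 0.20, after -0.07 ± 0.20 in medium. In the order medium, then LPS/IFN-gamma, Ripk2 differed by -0.03 ± 0.17 and -0.28 ± 0.17. Ticam1 differed by -0.23 ± 0.17 and -0.25 ± 0.17, and Irak4 by -0.17 ± 0.21 and -0.38 ± 0.22. Ticam2 differed by -0.16 ± 0.59 and -1.24 ± 0.63. WT clone 2 was the highest WT medium library for 8 of the 10 genes and KO clone 2 the highest stimulated KO library for 8.

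Ranked by level per kilobase of exon, Myd88 led in all 4 groups and Irak3 or Ticam2 came last. In WT medium the means were Myd88 24.0, Irak1 18.1 and Ripk2 11 CPM per kb, with Irak1 overlapping neither neighbour. From Ripk2 down to Irak3 at 1.24 CPM per kb, each neighbouring pair overlapped. In WT LPS/IFN-gamma libraries Myd88 stood at 95.9 and Ripk2 at 73.4 CPM per kb, which overlapped, followed by Irak2 at 34.1, apart from both neighbours. Irak1 (14.2), Tifa (11.8) and Ticam1 (9.37) formed an overlapping run. Traf6 came next at 7.56, apart from its neighbours, and Irak4 (3.40), Irak3 (2.38) and Ticam2 (1.70) overlapped at the low end.

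In KO medium Myd88 (22.9) and Irak1 (21.6 CPM per kb) overlapped at the top, and Ripk2 (10.8) and Traf6 (6.21) followed, each apart from its neighbours. Each neighbouring pair from Irak4 (4.64) through Tifa (4.47), Irak2 (2.55) and Ticam2 (2.07) to Ticam1 (1.93) overlapped, and Irak3 was lowest at 0.275, apart from the rest. In KO LPS/IFN-gamma libraries Myd88 (89.1), Ripk2 (60.6), Irak2 (21.7) and Irak1 (15 CPM per kb) were each apart from the next. Traf6 (8.79) and Ticam1 (7.90) overlapped. Tifa held the fifth place in stimulated WT clones and the seventh in stimulated KO clones, at 4.40 CPM per kb. Irak4 (2.62) followed, and Ticam2 (0.720) and Irak3 (0.706) overlapped at the bottom.

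**Figure D4:**
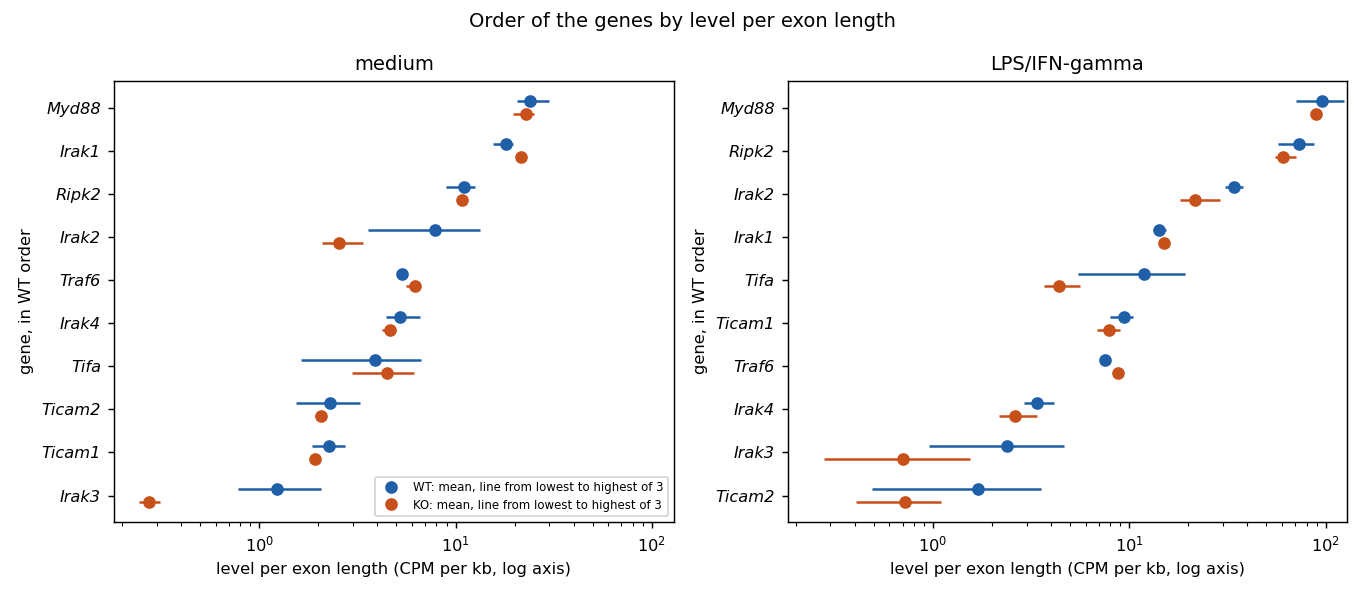
Mean level per kilobase of exon (CPM per kb, log axis) of the 10 genes in the 4 groups of 3 libraries, with bars from the lowest to the highest library. Irak2 passes Irak1 on stimulation in both genotypes, and Irak3 in KO medium (0.275 CPM per kb) is the lowest level of all.

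The genes with the profile most like each member over the 12 libraries were picked by Pearson's r of log2(CPM + 0.5) among genes with a mean of at least 5 CPM. These r values describe libraries that share 2 conditions and 6 clones, and carry no p. Myd88 was nearest to Pfkp (r = 0.996), Lap3 and Cox7a2, and Ticam1 to Zfp513 (0.995), B3gnt2 and Klf6. Ripk2 was nearest to Jak2 (0.994), Cd86 and Rnf19b, and Traf6 to Mapk1ip1l (0.986), Mtf1 and Kdm5c. Irak2 was nearest to Cd44 (0.984), Cyfip1 and Clta. Cd44 rose by 2.13 in WT and 3.10 in KO clones on the log2 scale, beside 2.11 and 3.10 for Irak2.

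Irak1 was nearest to Dnmbp (0.967), Cep83os and Tob1, and Irak4 to Ccdc171 (0.98), Pxmp4 and Smim19. Irak3 was nearest to Ifngr2 (0.975), Ccdc71 and Glipr1, and Ticam2 to Ube2h (0.943), Arl10 and Dnajc12. Tifa was nearest to Selenoo (0.966), Rnft1 (0.913) and Ggh (0.898). The fitted response of Selenoo was 0.55 in WT and 0.10 in KO clones on the log2 scale. Within the group, Myd88, Ticam1 and Ripk2 followed each other at r of 0.97 to 0.98.

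Among 60 other tested genes of the pathway, from lists drawn up with earlier results of these data known, 33 rose, 11 fell and 16 were not called in WT clones. In KO clones 32 rose, 11 fell and 17 were not called. The background for these counts, and for those of each list below, is 23.8% of all genes higher and 23.6% lower in WT and 26.7% and 27.6% in KO clones. The median log2 fold change was 0.64 in WT and 0.70 in KO clones. Scaled by library totals alone, the split was 25 higher and 17 lower in WT and 24 higher and 14 lower in KO clones. The background above does not apply to that split. That scaling called 6826 of 12231 genes in WT and 7313 in KO clones, with all-gene medians of -0.37 and -0.39. None was called by edgeR between genotypes in medium, beside 1.21% of all genes, and 3 of the 60 were lower in KO clones under LPS/IFN-gamma, beside 3.51% of all genes. For the difference of responses 0 of the 60 were called with 1 mean per group, beside 0% of all genes. With clone as a block 1 was called, the receptor gene Tlr13 (a larger fall in KO clones), beside 0.327% of all genes. With KO 1A and 1B also summed as 1 clone, 0 of 12355 genes were called.

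Sensors and receptors stood on both sides. Of 13 tested receptors that use these adaptors, 5 rose and 4 fell in WT and 4 rose and 4 fell in KO clones. Tlr4, the LPS receptor, passed from 83.0 ± 12 to 22.9 ± 6.93 CPM in WT and from 184 ± 68.7 to 30.9 ± 10.9 CPM in KO clones (SD, n = 3). Its log2 fold change was -1.86 ± 0.32 and -2.57 ± 0.32. Tlr9, a sensor of bacterial DNA, rose by 2.56 ± 0.64 and 2.71 ± 0.66, and Tlr3, a sensor of double-stranded RNA, rose by 2.34 ± 0.42 and 2.33 ± 0.42. Tlr13, a sensor of bacterial ribosomal RNA, fell by 2.42 ± 0.74 in WT and by 4.71 ± 0.95 in KO clones.

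The 3 receptors lower in KO than in WT clones under LPS/IFN-gamma were Tlr13, Il1rap and Il1rl1. Tlr13 stood at 22.4 ± 13.3 CPM in WT and 1.34 ± 1.05 CPM in KO clones, a log2 difference of -4.07 ± 0.95. Il1rap, the shared chain of the interleukin-1 receptor family, stood at 57.1 ± 6.18 and 26.4 ± 4.35 CPM, a difference of -1.11 ± 0.28. Il1rl1, the interleukin-33 receptor, stood at 39.1 ± 21.9 and 8.83 ± 1.42 CPM, a difference of -2.15 ± 0.40. All 3 were also lower in KO clones in medium, though not called there. The medium log2 differences (KO minus WT) were -1.78 ± 0.72 for Tlr13, -1.24 ± 0.28 for Il1rap and -1.34 ± 0.37 for Il1rl1. Each of the 3 calls was lost with KO 1A and 1B summed as 1 clone, at adjusted p of 0.191, 0.234 and 0.129 in edgeR's test, with differences of -3.93, -1.05 and -2.10. Leaving out KO 1A (0.233, 0.244 and 0.138) or KO 1B (0.194, 0.237 and 0.141) also ended all 3. Leaving out WT 1 (0.0891 and 0.129) or WT 2 (0.0772 and 0.0548) ended those of Tlr13 and Il1rap, as did leaving out KO 2 (0.05 and 0.0564).

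Of the partners of RIPK2 and TIFA, 4 of 6 rose and 1 fell in WT clones, and 3 rose and 1 fell in KO clones. Nod2, a peptidoglycan sensor that signals through RIPK2, passed from 2.58 ± 0.298 to 46.2 ± 4.25 CPM in WT and from 1.47 ± 0.310 to 31.0 ± 12 CPM in KO clones. Nod1, its relative, was at 0.292 ± 0.263 and 0.152 ± 0.0871 CPM in medium and at 18.1 ± 11.1 and 8.74 ± 6.74 CPM under LPS/IFN-gamma. Alpk1, the kinase upstream of TIFA, rose by 1.36 ± 0.35 in WT clones, and its value in KO clones was 0.88 ± 0.35, not called (adjusted p = 0.0535, edgeR). The difference of its responses was -0.48 ± 0.49 (KO minus WT, log2), not called. With RLE size factors, or with clone as a block, 4 of the 6 partners rose and 1 fell in KO clones. Those fits called 6660 and 8082 of 12231 genes.

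Of 14 ubiquitin ligases and conjugating enzymes, 8 rose and 1 fell in each genotype. Traf1, a relative of TRAF6 without its ligase domain, rose by 5.93 ± 0.64 in WT and 5.66 ± 0.62 in KO clones. Birc3, a ligase of the same complexes, rose by 2.35 ± 0.36 and 2.82 ± 0.37. Peli1, a ligase that acts with the IRAKs, rose by 1.99 ± 0.20 and 2.53 ± 0.21.

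Of 13 genes of the TAK1, IKK and TBK1 complexes, 8 rose and 1 fell in WT and 10 rose and 1 fell in KO clones. Ikbke, an IKK-related kinase of the interferon branch, rose by 4.85 ± 0.38 and 4.06 ± 0.37. Map3k8, the kinase that feeds the ERK pathway, rose by 1.93 ± 0.28 and 1.91 ± 0.28.

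Of 7 deubiquitinases and ABIN inhibitors, which remove or cover ubiquitin chains, 5 rose and 0 fell in each genotype. Tnfaip3, which encodes A20, rose by 5.66 ± 0.52 and 4.80 ± 0.51, and Tnip1 by 1.45 ± 0.16 and 2.12 ± 0.17. Of 7 other adaptors and receptor-proximal regulators, 3 rose and 4 fell in WT clones, and 2 rose and 4 fell in KO clones. Pik3ap1, the adaptor BCAP, rose by 1.16 ± 0.27 and 1.92 ± 0.28, and Tollip, an IRAK1-binding inhibitor, by 0.67 ± 0.09 and 0.71 ± 0.09. Irak1bp1 fell by 0.72 ± 0.20 and 1.31 ± 0.20 on the log2 scale.

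**Figure D5:**
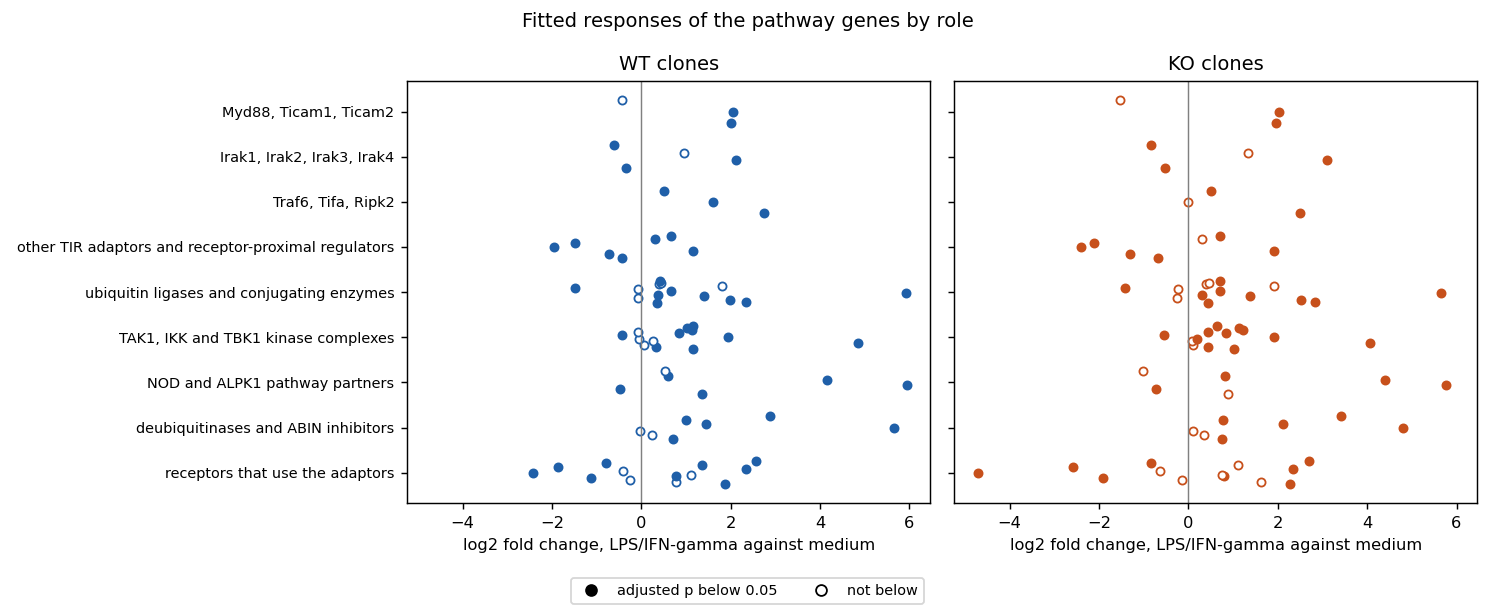
Fitted log2 fold change of the 10 genes (top 3 lines) and of the other tested pathway genes, grouped by role, in WT and KO clones; filled points have an adjusted p below 0.05. Deubiquitinases and ABIN inhibitors have called points only to the right of 0, whereas receptors have called points on both sides.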

How the data were processed

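RNA was sequenced from 12 libraries of cloned RAW 264.7 cells. The authors deposited raw read counts per Ensembl gene for all libraries in 1 table; per the submitters' processing notes the build was mm10/GRCm38 and DESeq2 was used, and for the aligner, counter and strand setting no source used here gives a name. Symbols and exon lengths came from GENCODE M21, which named 12305 of 12483 IDs, and promoter sequences from RefSeq (GRCm38.p6). Every listed gene had a second-highest count of at least 5, so rows may have been filtered. The count table wrote 66 counts in exponent form, whose last digits may be rounded.

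Counts were fitted with edgeR 4.0.16 in R 4.3.3 (TMM, filterByExpr, robust quasi-likelihood test, 1 mean per group, 8 residual degrees of freedom), with Benjamini-Hochberg adjustment over 12231 genes and a threshold of 0.05. Clones of a group varied by 23.6% (common biological coefficient of variation). Levels are CPM on TMM-scaled totals, and per-clone responses add 0.5 CPM. The fit with 1 mean per group was tested on simulated data that held no clone effect, and the fit with clone as a block was not. P-values measure the spread between clones of 1 line. The members and lists were chosen with earlier results of these data known. Named pathway genes were, per list and genotype, up to 3 called genes with the largest response and at least 5 CPM in a group, and any called between genotypes; some of these are left unnamed. Alternatives were other scalings, DESeq2 1.42.0, other filters, clones left out or summed, and clone as a block.

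The same clone gave both conditions, so clone pairs the libraries. Deviations from group means correlated within a clone at r of 0.62 to 0.69 in WT and at 0.35, 0.32 and 0.53 in KO 1A, 1B and 2. The highest r with another clone of the genotype was -0.37 to -0.11 in WT clones. For KO 1A, 1B and 2 it was 0.32, 0.2 and -0.37, so for KO 1A it came close to the r within the clone. A planned comparison of the encoded proteins was not analysed here. A further planned promoter search is not reported here.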

Additional observations from a re-analysis of the deposited data

Results flagged for a closer look

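The response of Tifa to LPS/IFN-gamma differed between genotypes in the test of the difference itself with each clone as a block, by -1.62 on the log2 scale (KO minus WT). The level rose in 3 of 3 WT clones, and 1 of 3 KO clones was above its medium level. The adjusted p was 0.0171 in edgeR's test with 4 residual degrees of freedom, and it was 0.0947 with KO 1A and 1B summed as 1 clone. Over all genes these fits called 40 and 0. Ddx3y and the origin of the clones differ with genotype, so they cannot be told apart from the deletion.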

How the results depend on the processing

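Of 840 values of single genes under other settings, 750 kept their direction and side of the threshold, 24 passed it, 16 no longer did and 50 changed sign, 0 of them called in either fit. In medium, DESeq2 called 1 of the 10 genes, and leaving out clones gave 0 to 1; under LPS/IFN-gamma leaving out clones gave 0 to 1. For the difference of responses, clone as a replicate block called 1 (Tifa), and leaving out clones, with and without the block, gave 0 to 2; the second was Irak2 without WT clone 1 (1.24, adjusted p = 0.035, edgeR). Besides this, the block changed the call of Ticam2 in KO clones and no other. Fits with the block and clones left out or summed were chosen after seeing the data. Library totals alone gave WT clones 4 higher and 2 lower calls among the 10 genes, in place of 6 and 2, and KO clones 4 and 3, in place of 5 and 2. That scaling called 6826 of 12231 genes in WT and 7313 in KO clones. Over all genes, calls in medium numbered 148, against 618 with DESeq2, 419 without WT 3, and 14, 24 and 16 without KO 1A, without KO 1B or with both summed. Under LPS/IFN-gamma they numbered 567, against 1187 with DESeq2, 972 without WT 3, 287 without KO 2, and 48, 69 and 73 for the same KO settings. For the difference of responses they numbered 0, against 611 at an unadjusted p under 0.05, 28 with DESeq2 and 40 with the block. With the block they numbered 92, 36 and 198 without WT 1, 2 and 3. Without KO 1A, 1B and 2 they numbered 0, 1 and 0, and with 1A and 1B summed 0. At a mean of 1 CPM, 27 of 30 most similar genes were shared. The sign changes fell in 12 log2 values, and their cause was not tested. The Tifa response in KO clones was 0.006 with the block. Ripk2 in medium (KO minus WT) was 0.028 with library totals alone. With KO 1A and 1B summed, without and then with the block, the difference of responses was 0.020 and 0.043 for Myd88, 0.034 and 0.009 for Ticam1, and 0.048 and 0.050 for Traf6; for Traf6 it was also 0.007 with RLE size factors, 0.005 with DESeq2 and 0.001 with the block. Leaving out clones moved the KO response of Tifa from -0.137 to 0.086. The same moved the medium differences from -0.166 to 0.129 (Myd88), -0.378 to 0.175 (Ticam2), -0.275 to 0.030 (Irak4), -0.171 to 0.809 (Tifa) and -0.159 to 0.080 (Ripk2), and that of Myd88 under LPS/IFN-gamma from -0.284 to 0.128. The differences of responses moved from -0.149 to 0.083 (Myd88), -0.124 to 0.084 (Ticam1), -0.912 to 0.873 (Irak3), -0.091 to 0.056 (Traf6) and -0.521 to 0.035 (Ripk2). Irak3 had 10 to 17 reads in 5 of the 6 KO libraries.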
